A study of Mus musculus with 6 samples.

Results

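MicroRNA genes were read in proliferating neural stem cells and progenitors of adult mice, with and without active SIRT1. A gene was included when the platform annotation paired a probe set with it alone and its symbol starts with Mir and a digit or with Mirlet. Of 19937 genes with a single-gene probe set, 300 met this rule. RefSeq lists 296 of them as microRNA genes and 4 (Mir100hg, Mir17hg, Mir670hg and Mir99ahg) as long noncoding host genes of microRNAs. They lie on 20 chromosomes, with 47 on chromosome 12 and 39 on X. Of these genes, 2 had more than 1 probe set, and the one with the highest mean over the 6 arrays was used. A further 37 probe sets were paired with several genes that include a microRNA and are not among the 300.

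The Sirt1 inactive cultures came from NestinCre;Sirt1lox/lox mice, in which Cre recombinase under the Nestin promoter acts on floxed Sirt1 alleles in neural stem and progenitor cells, and the control cultures from Sirt1lox/lox mice with the same floxed alleles and no Cre. All mice were 8 weeks old and of the 129SV strain, and cells were collected at passage 2, after growth as neurospheres in neurobasal medium with B27, EGF and bFGF and replating on poly-D-lysine. There were 3 arrays per genotype, called biological replicates in the titles, and how many mice stand behind each is not stated in the sources used. An effect of Cre itself cannot be told apart from the loss of active SIRT1, since the controls carry none. The markers of neural stem cells were bright, with a mean over 8 genes of 11.28 to 11.37 in the Sirt1 inactive arrays and 11.21 to 11.32 in the control arrays, on the log2 scale of RMA values that is used throughout. Sirt1 itself read 8.26, 8.33 and 8.25 in Sirt1 inactive arrays, against 8.73, 8.78 and 8.55 in control arrays. The groups did not overlap, and the difference of -0.41 (SE 0.076) missed the threshold after adjustment over all probe sets (adjusted p = 0.959, limma).

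A microRNA gene is copied into a long primary transcript, from which the nuclear enzyme Drosha with its partner Dgcr8 cuts a hairpin. Exportin-5 carries the hairpin to the cytoplasm, Dicer cuts it to a short duplex, and an Argonaute protein holds one strand, the mature microRNA. The seed near the 5′ end of the mature strand pairs with messenger RNAs, which are then repressed, so genes with the same seed share many possible targets. In neural tissue miR-124 is abundant in neurons, miR-9 in progenitors and let-7 accumulates as cells differentiate. The RNA was total RNA from a silica column, labelled by a protocol for whole transcripts. Values therefore describe what hybridised to probes assigned to a microRNA gene, and primary transcript, hairpin, mature strand and background cannot be told apart by them.

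The mature strands below belong to the genes around which the values turn, and are credited to RefSeq with build GRCm38.p6. Capitals mark the seed, bases 2 to 8. The first set is the miR-181 family, which shares one seed over 6 genes in 3 pairs on 3 chromosomes.
miR-181a-5p: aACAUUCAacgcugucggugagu
miR-181b-5p: aACAUUCAuugcugucgguggguu
miR-181c-5p: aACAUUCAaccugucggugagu
miR-181d-5p: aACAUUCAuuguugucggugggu

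The next set shares the miR-15/16 seed, and its genes include Mir15b, with the highest difference among the 300, and Mir497, one of the lower ones.
miR-15a-5p: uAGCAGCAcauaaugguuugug
miR-15b-5p: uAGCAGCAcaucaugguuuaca
miR-16-5p: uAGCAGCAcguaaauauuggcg
miR-195a-5p: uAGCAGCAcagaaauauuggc
miR-497a-5p: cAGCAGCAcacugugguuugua

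The miR-17-92 cluster on chromosome 14 carries several seeds on one transcript, and its genes varied with the replicate number.
miR-17-5p: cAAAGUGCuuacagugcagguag
miR-18a-5p: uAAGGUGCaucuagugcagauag
miR-19a-3p: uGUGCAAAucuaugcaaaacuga
miR-19b-3p: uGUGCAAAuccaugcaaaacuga
miR-20a-5p: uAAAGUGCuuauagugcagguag

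The last set holds neural microRNAs and genes with lower values in Sirt1 inactive cultures, miR-125a and miR-125b sharing one seed, together with miR-134 and miR-138, which have been linked to SIRT1 in neurons, and miR-34a, which targets Sirt1 messenger RNA.
miR-125a-5p: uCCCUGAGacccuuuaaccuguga
miR-125b-5p: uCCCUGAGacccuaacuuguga
miR-183-5p: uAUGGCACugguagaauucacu
miR-26a-5p: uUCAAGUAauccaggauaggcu
miR-218-5p: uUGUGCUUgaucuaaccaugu
miR-9-5p: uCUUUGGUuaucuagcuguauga
let-7a-5p: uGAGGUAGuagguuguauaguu
miR-134-5p: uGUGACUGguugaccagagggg
miR-138-5p: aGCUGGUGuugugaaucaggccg
miR-34a-5p: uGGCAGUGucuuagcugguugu

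Most microRNA gene probe sets were dim. Their means over 6 arrays ran from 3.39 to 10.04 with a median of 5.53, against a median of 7.90 over the 22961 tested probe sets. When all tested probe sets were divided into quartiles of brightness, with limits at 6.42, 7.90 and 9.48, 189 of the 300 (63.0%) fell in the dimmest, 70 in the second, 37 in the third and 4 in the brightest. The 10 brightest were Mir139, Mir692-1, Mir346, Mir9-1, Mir328, Mir100hg, Mir181b-1, Mir667, Mir210 and Mir25, and the dimmest was Mir297-1. Mir9-1, a source of the progenitor microRNA miR-9, read 9.46, 9.72 and 9.94 in Sirt1 inactive arrays and 9.48, 9.93 and 9.91 in control arrays. These ranges overlapped almost wholly. Brightness is not an amount of RNA, since each probe binds with its own strength.

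**Figure D1:**
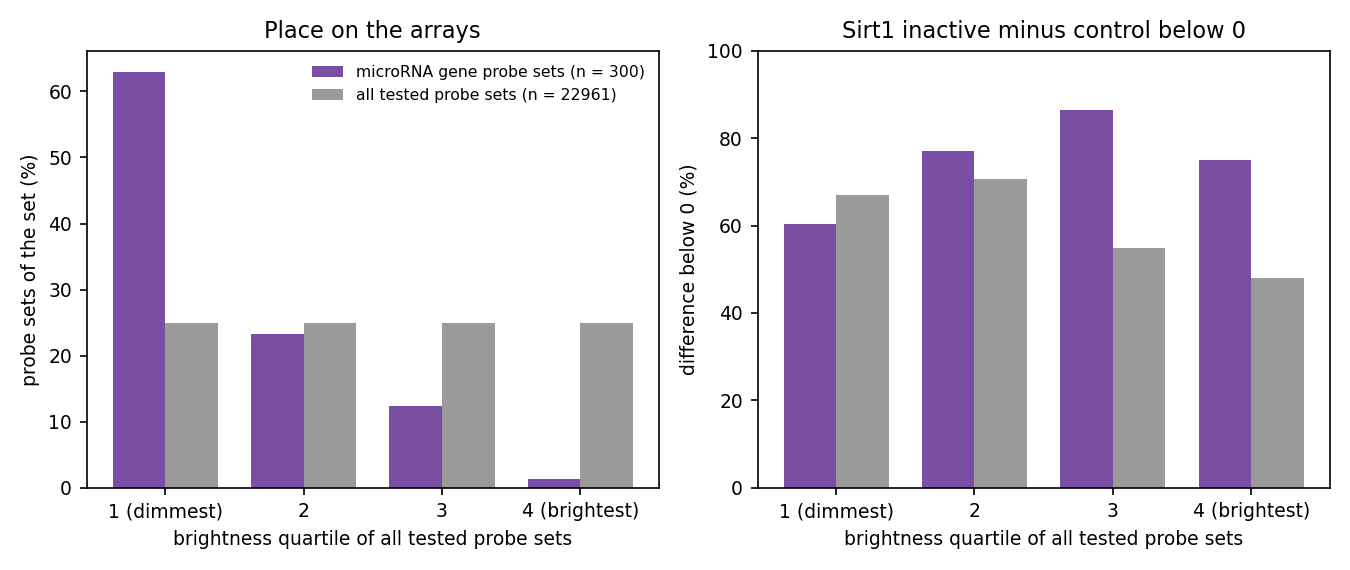
Left, percent of each set's probe sets in each brightness quartile, for the 300 microRNA gene probe sets and for all 22961 tested probe sets; right, percent of each with a Sirt1 inactive minus control difference below 0. The dimmest quartile holds 63.0% of the microRNA gene probe sets, and in the third quartile 86.5% of them had a difference below 0, against 54.9% of all those tested.

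Hairpin composition went with brightness. RefSeq hairpins were matched for 258 of the 296 microRNA genes (87.2%). Across these genes, which share the same 6 arrays and are not independent, the G + C content of the hairpin and the mean value had a Pearson r of 0.75 and a Spearman rho of 0.79. Divided into 3 groups of 86 by G + C, the genes had a median level of 4.14 in the group with the least (28.4% to 43.9%), 5.36 in the middle group and 7.13 in the group with the most (52.1% to 69.2%). Only 3 of the 86 genes of the least G + C lay in the upper brightness quartiles, against 20 of the 86 with the most.

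Control replicate 3 stood apart. It was the highest array in 132 of the 300 genes and in 25 of the 32 genes whose 3 Sirt1 inactive values all lay below the 3 control values. Its median deviation from the mean of 6 arrays was 0.073 over the 300 genes and 0.045 over all tested probe sets. Astrocyte markers were also low in that array, with a mean over 7 genes of 9.66 there, against 10.48 to 10.64 in Sirt1 inactive arrays and up to 10.59 in the other control arrays. Vessel markers averaged 7.38 to 7.49 in Sirt1 inactive arrays and 7.20 to 7.59 in control arrays.

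No microRNA gene passed the test between genotypes. Of the 300, 0 had an adjusted p under 0.05 (limma, 0% of all tested probe sets, smallest adjusted p 0.959), and 16 had an unadjusted p under 0.05, of which 2 were higher and 14 lower in Sirt1 inactive cultures. That is 5.33% of the genes, beside 3.61% of all tested probe sets (0.984% higher and 2.63% lower). In 41 genes the 3 Sirt1 inactive values did not overlap the 3 control values, 9 higher and 32 lower, or 13.7% beside 9.33% of all tested probe sets (2.62% higher and 6.71% lower). The difference was below 0 in 203 of 300 genes (67.7%), beside 60.1% of all tested probe sets, with a median of -0.037 beside -0.022. Differences ran from -0.27 to 0.42, and 18 genes differed by more than 0.2 either way. The median 95% interval reached 0.18 to either side of a gene's difference. A gene whose interval held 0 could not be told apart from no difference with 6 arrays, even before adjustment.

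The same-numbered arrays of the 2 genotypes varied together, and with the replicate number as a block 24 of the 300 genes had an unadjusted p under 0.05 (8 higher, 16 lower, 8% in all), beside 7.58% of all tested probe sets (2.5% higher and 5.08% lower). With the block again 0 genes had an adjusted p under 0.05, the smallest being 0.656.

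Without control replicate 3, 57.3% of the 300 genes were below 0, beside 53.7% of all tested probe sets, the median difference was -0.014 beside -0.007, and 8 genes had an unadjusted p under 0.05. Subtracting each array's median left 58% of the genes below 0, beside 48.9% of all tested probe sets. For genes without overlap, leaving out an array cannot change the sign of the difference, so that change is no check of their direction. With array medians subtracted, all 32 lower genes stayed below 0, and all 9 higher genes without overlap stayed above 0. That setting moves every difference upward by the same small amount, as for Mir124a-2 from -0.252 to -0.227. The lower genes without overlap lay at -0.081 or further below 0, so no sign could change and this is no check of direction either.

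The share of microRNA genes below 0 was set beside brightness. In the dimmest quartile 60.3% of the microRNA genes were below 0, beside 67.1% of all tested probe sets there, in the second 77.1% beside 70.6%, in the third 86.5% beside 54.9% and in the brightest 3 of 4 genes beside 48.0%. In the third quartile, 10 of 37 genes were lower without overlap (27.0%), beside 5.21% of the probe sets of that brightness. Without control replicate 3, the shares from the dimmest quartile up were 53.4% beside 55.2% of all tested probe sets, 58.6% beside 60.1%, 78.4% beside 52.2%, and 1 of 4 genes beside 47.3%. The excess over all tested probe sets then remained in the third quartile and not in the other quartiles. By hairpin composition, 54.7% were below 0 in the group with the least G + C, 61.6% in the middle group and 83.7% in the group with the most, and without control replicate 3 these shares were 51.2%, 55.8% and 64.0%. The median differences of these groups were -0.005, -0.036 and -0.090, and without control replicate 3 they were -0.003, -0.014 and -0.040. Control replicate 3 deviated by a median of -0.008, 0.054 and 0.141 in the same groups. The part of G + C content and of this array in the lower values was not tested.

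**Figure D2:**
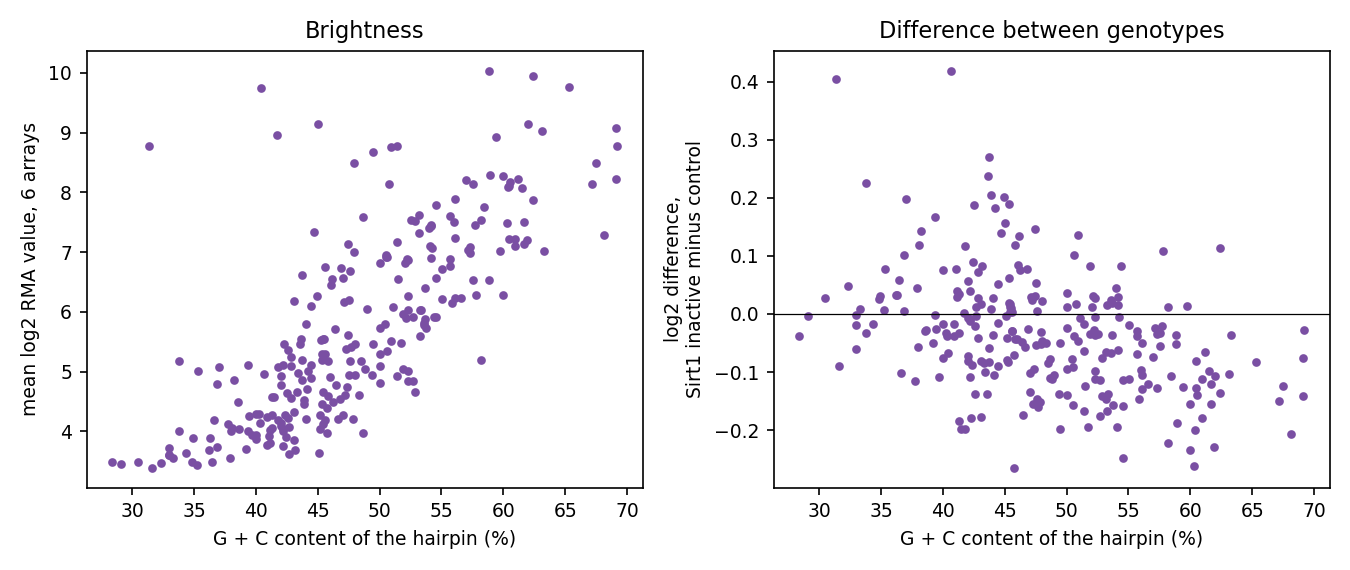
Each point is 1 of the 258 microRNA genes with a RefSeq hairpin, placed by the hairpin's G + C content (percent) against the mean log2 RMA value of 6 arrays (left) or the log2 difference, Sirt1 inactive minus control (right). Brightness grew with G + C content (r = 0.75), and 83.7% of the differences in the group with the most G + C were below 0, or 64.0% without control replicate 3.

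Mir124a-2, one source of the neuronal microRNA miR-124, had the smallest p among the 300. It read 6.93, 6.87 and 6.92 in Sirt1 inactive arrays, against 7.12, 7.18 and 7.18 in control arrays. Means were 6.91 ± 0.03 in Sirt1 inactive and 7.16 ± 0.04 in control (SD, n = 3 each), a difference of -0.25 (SE 0.056), or 0.84 times control (limma, unadjusted p = 0.0027, adjusted p = 0.959). With the replicate number as a block, the unadjusted p was 0.0058 (limma). All 3 Sirt1 inactive arrays were below all 3 control arrays, where the exact permutation test gives 0.1, the smallest p it allows for 3 against 3.

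Mir125a, a progenitor and early neural microRNA gene within Spaca6 on chromosome 17, read 7.27, 7.46 and 7.33 in Sirt1 inactive arrays, against 7.56, 7.57 and 7.72 in control arrays. The difference was -0.26 (SE 0.077, limma, unadjusted p = 0.0115, or 0.0132 with the block), and the groups did not overlap. Its mature 5p strand lies at chr17:17830817-17830840 on the plus strand of GRCm38.p6. The protein-coding host Spaca6 went the other way in value, at 7.69, 8.04 and 7.66 in Sirt1 inactive arrays and 7.69, 7.71 and 7.23 in control arrays, with overlap (difference 0.25, SE 0.16). The other genes of its seed, Mir125b-1 and Mir125b-2, had differences of -0.17 and -0.076, with overlap in both. Mirlet7e, its near neighbour on the same strand, had -0.14.

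Mir183, a microRNA gene of sensory cells, was dim and read 3.87, 3.92 and 3.76 in Sirt1 inactive arrays, against 4.04, 4.12 and 4.18 in control arrays. The difference was -0.27 (SE 0.070), without overlap. Its cluster neighbours did not share it: Mir96 had 0.14 and Mir182 0.023. All 3 lay in the dimmest quartile.

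Mir497, of the miR-15/16 seed, read 7.08, 7.04 and 7.13 in Sirt1 inactive arrays, against 7.38, 7.20 and 7.36 in control arrays (difference -0.23, SE 0.069). The groups did not overlap, while its neighbour Mir195a, with the same seed, had a difference of -0.005. Mir26a-1, which lies within the phosphatase gene Ctdspl, read 6.20, 6.05 and 6.24 in Sirt1 inactive arrays, against 6.33, 6.35 and 6.51 in control arrays (difference -0.23, SE 0.080). Ctdspl itself differed by -0.012, and Mir26b, of the same seed, by -0.036.

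Mir328 was the brightest of the lower genes, at 9.44, 9.21 and 9.34 in Sirt1 inactive arrays and 9.55, 9.47 and 9.67 in control arrays (difference -0.24, SE 0.082). Mir218-2, within the guidance ligand gene Slit3 and known from motor neurons, read 5.83, 5.78 and 5.75 in Sirt1 inactive arrays and 5.88, 6.03 and 6.20 in control arrays (difference -0.25, SE 0.088). Slit3 differed by -0.034, and Mir218-1, which gives the same mature strand from within Slit2, by 0.003. Mir542 on X, Mir369 on chromosome 12 and Mir491 in Focad completed the 10 lower genes with the smallest p, with differences of -0.19, -0.20 and -0.17. Without control replicate 3 the differences of these 10 genes ran from -0.24 to -0.13. With the block their unadjusted p ran from 0.0058 to 0.045, against 0.0027 to 0.037 without it (limma). It was higher with the block for Mir124a-2, Mir183, Mir125a, Mir542, Mir218-2 and Mir491, and lower for Mir497, Mir26a-1, Mir328 and Mir369.

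**Figure D3:**
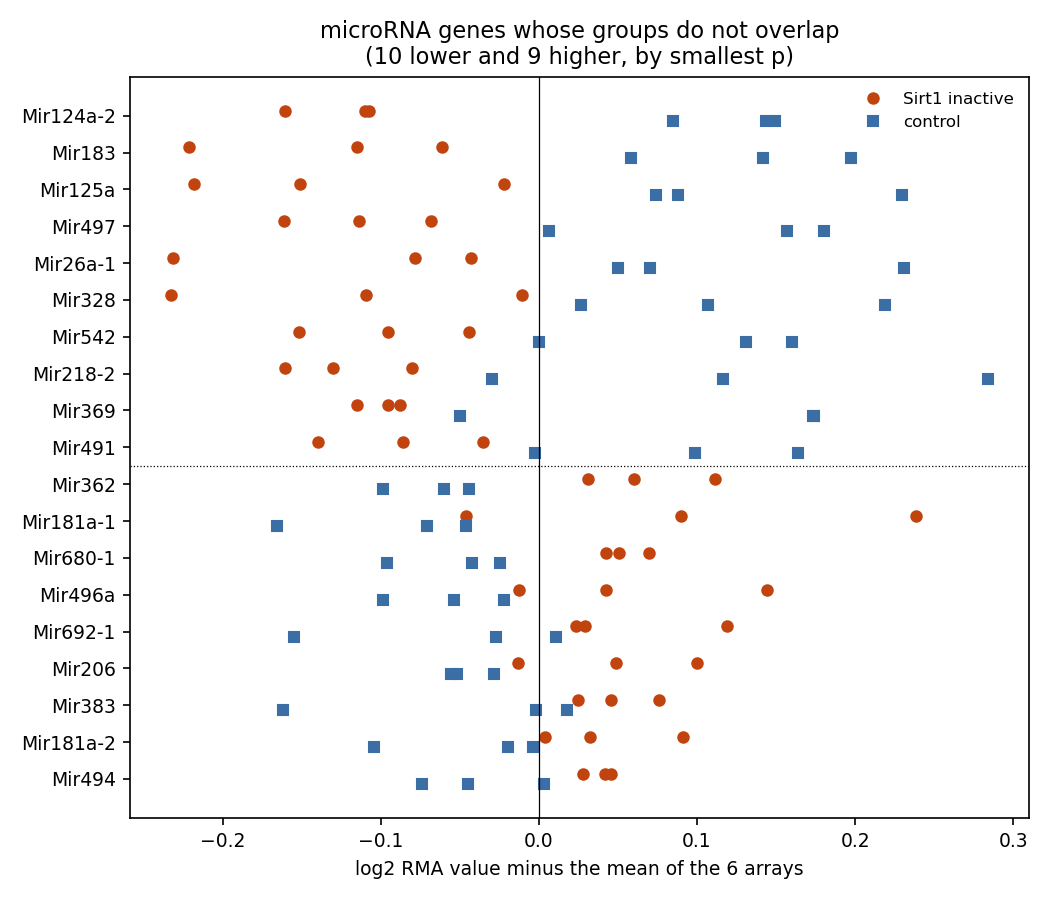
Log2 RMA value of each array minus the mean of the 6 arrays, for the 10 lower and the 9 higher microRNA genes whose groups do not overlap, with Sirt1 inactive arrays as circles above control arrays as squares. Mir124a-2, at 6.91 ± 0.03 in Sirt1 inactive and 7.16 ± 0.04 in control before centring, has the smallest p.

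The 9 higher genes without overlap differed by 0.077 to 0.19, and the 32 lower ones by -0.27 to -0.081. Mir362, in a cluster of 5 microRNA genes on X, read 6.67, 6.61 and 6.59 in Sirt1 inactive arrays, against 6.49, 6.46 and 6.51 in control arrays. The difference was 0.13 (SE 0.057, limma, unadjusted p = 0.0478, or 0.0578 with the block). Clcn5, the gene in which Mir362 lies, went the other way without overlap (difference -0.11, SE 0.061). It read 9.25, 9.15 and 9.28 in Sirt1 inactive arrays and 9.35, 9.31 and 9.35 in control arrays. The cluster of Mir362 held 2 genes above 0 and 3 below. The other 8 were Mir181a-1, Mir680-1, Mir496a, Mir692-1, Mir206, Mir383, Mir181a-2 and Mir494, with differences from 0.077 (Mir494) to 0.19 (Mir181a-1) and unadjusted p above 0.05. Mir206, a muscle gene, sat at the dim end, with a mean of 3.90 over the 6 arrays and a difference of 0.090.

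The miR-181 family split by locus. On chromosome 1, Mir181a-1 (mature strand at chr1:137966468-137966490) read 4.60, 4.88 and 4.73 in Sirt1 inactive arrays, against 4.48, 4.60 and 4.57 in control arrays, so that the groups met at the printed decimals without overlap. Its neighbour Mir181b-1 read 8.93, 9.48 and 9.28 in Sirt1 inactive arrays and 8.80, 9.31 and 9.11 in control arrays, higher in every same-numbered pair though the groups overlap. Their differences were 0.19 (SE 0.085) and 0.16 (SE 0.17), with unadjusted p of 0.0249 and 0.0310 under the block, against 0.0623 and 0.395 without it.

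On chromosome 2, Mir181b-2 (chr2:38853845-38853868) read 6.26, 6.46 and 6.40 in Sirt1 inactive arrays, against 6.15, 6.28 and 6.09 in control arrays (difference 0.20, unadjusted p = 0.041, limma), and Mir181a-2 differed by 0.085 without overlap. On chromosome 8 the values ran the other way. Mir181d (chr8:84178759-84178781, minus strand) read 8.78, 8.65 and 8.65 in Sirt1 inactive arrays, against 8.82, 8.81 and 8.95 in control arrays (difference -0.17, unadjusted p = 0.0478, limma). Mir181c differed by -0.11, also without overlap. So 4 genes of one seed on 2 chromosomes had values above 0 and 2 on the third had values below 0. None passed after adjustment, and the difference between loci was not tested.

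Mir15b had the highest difference of the 300. It read 4.76, 5.58 and 5.19 in Sirt1 inactive arrays, against 4.52, 5.17 and 4.58 in control arrays (difference 0.42, SE 0.24). Number 2 was high in both genotypes and the groups overlapped, while each Sirt1 inactive array lay above its same-numbered control. The unadjusted p was 0.124 without the block and 0.0034 with it (limma, neither adjusted). Its neighbour Mir16-2 on chromosome 3 differed by 0.10, while the other pair of this seed, Mir15a and Mir16-1 on chromosome 14, had -0.038 and -0.037. Mir16-1 lies in the noncoding gene Dleu2, and the probe set of Dleu2 differed by 0.24 (unadjusted p = 0.0150, limma), at a dim mean of 3.69.

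The miR-17-92 cluster, known from dividing cells, varied with the replicate number in both genotypes. Averaged over its 5 measured genes, deviations from the 6-array mean were -0.22, 0.37 and 0.067 in Sirt1 inactive arrays and -0.27, 0.12 and -0.077 in control arrays. Number 2 was the highest in both genotypes. Mir18 read 6.40, 7.22 and 6.62 in Sirt1 inactive arrays, against 6.41, 6.71 and 6.31 in control arrays, a difference of 0.27 (SE 0.21). Mir19b-1, Mir19a and Mir20a had 0.24, 0.21 and 0.12, and Mir17 had -0.083. The host transcript Mir17hg, read by its own probe set, was at 6.55, 6.94 and 6.70 in Sirt1 inactive arrays and 6.49, 6.93 and 6.57 in control arrays (difference 0.064). With the block, the unadjusted p was 0.018 for Mir19b-1 and 0.049 for Mir18 (limma, neither passing after adjustment).

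Related clusters had values in both directions. On X, the paralogous cluster held Mir106a, with -0.18 (unadjusted p = 0.0487, limma), Mir363 with -0.18, Mir92-2 with -0.16, Mir19b-2 with 0.12 and Mir20b with 0.076. On chromosome 5, Mir25, Mir93 and Mir106b, which lie within the replication licensing gene Mcm7, had -0.10, -0.068 and -0.034, and Mcm7 itself -0.012. Over the 13 genes of the 3 clusters, 7 were below 0 and 1 had an unadjusted p under 0.05. Of the 300 genes, 67.7% were below 0 and 5.33% had such a p, beside 60.1% and 3.61% of all tested probe sets.

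**Figure D4:**
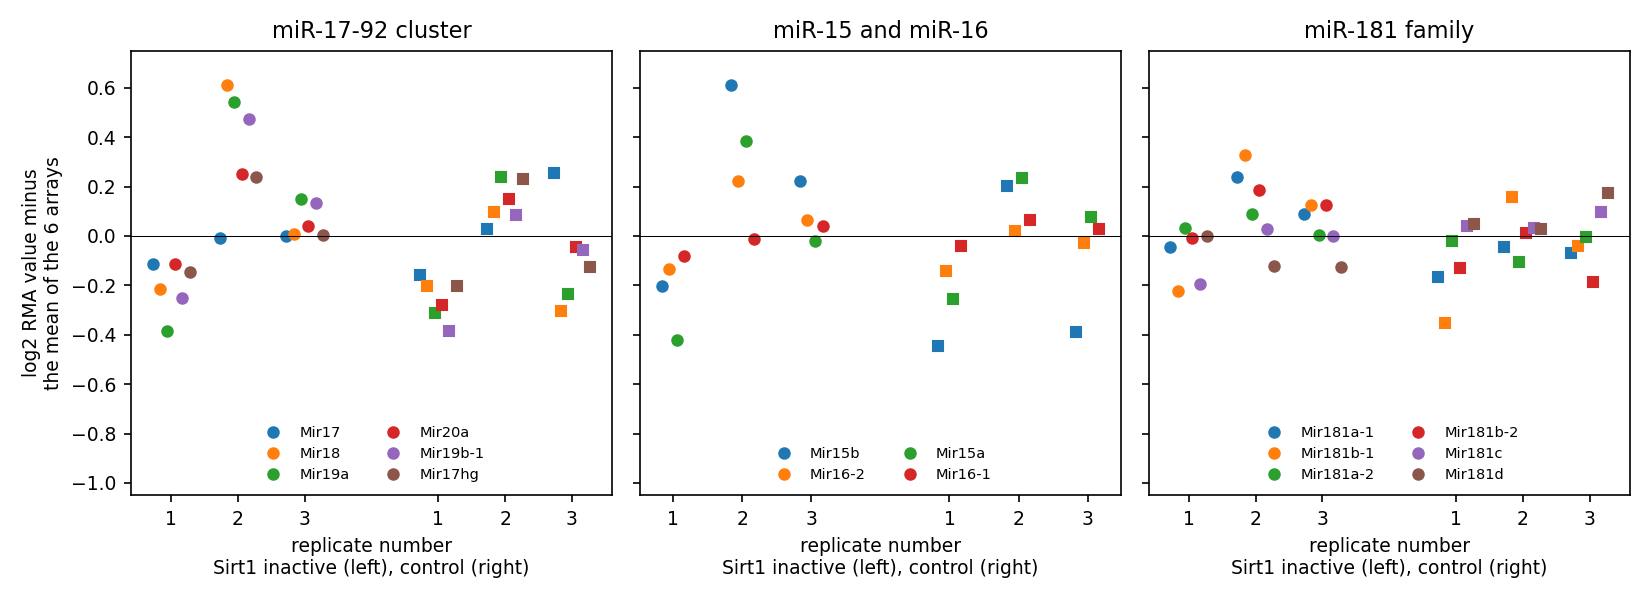
Log2 RMA value minus the mean of the 6 arrays, by replicate number, for the miR-17-92 cluster with its host transcript, the miR-15 and miR-16 genes and the miR-181 family; circles (left) are Sirt1 inactive arrays and squares (right) control arrays. In the miR-17-92 cluster number 2 averages 0.37 in Sirt1 inactive and 0.12 in control, the highest array of each genotype.

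Control replicate 3 decided the size of some differences. Mir568 spanned 1.37 over the 6 arrays, the most of the 300, at 9.21, 8.98 and 8.76 in Sirt1 inactive arrays and 8.93, 8.96 and 7.84 in control arrays. Its difference of 0.40 (SE 0.30) was 0.037 without control replicate 3, the lone low array. Mir670hg, a host transcript, had the most negative difference, -0.27 (SE 0.17), which was -0.061 without control replicate 3, the high array. It read 6.66 to 6.80 in Sirt1 inactive arrays, against 6.72, 6.89 and 7.43 in control arrays.

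Of 20 neuronal microRNA genes measured, 17 were below 0, beside 67.7% of the 300 microRNA genes and 60.1% of all tested probe sets. Among the 20, 2 had an unadjusted p under 0.05, both lower (4.67% of the 300 genes and 2.63% of all tested probe sets). Lower without overlap were 5 (10.7% of the 300 genes and 6.71% of all tested probe sets). Their median difference was -0.076, beside -0.037 over the 300 genes and -0.022 over all tested probe sets. Without control replicate 3 it was -0.045 (-0.014 over the 300 genes), with 16 of 20 below 0. Medians of other lists were -0.075 for 5 vessel, -0.105 for 6 Hox cluster and 0.020 for 7 muscle microRNA genes. Besides Mir124a-2 and Mir218-2, the 5 neuronal genes lower without overlap were Mir138-1 (-0.16), Mir124a-3 (-0.17) and Mir134 (-0.14). Mir134, which acts on dendritic protein synthesis, read 8.05, 8.14 and 8.11 in Sirt1 inactive arrays, against 8.15, 8.21 and 8.36 in control arrays. Mir132 and Mir212, activity-induced neighbours, had -0.033 and -0.028, and Mir7-1, within Hnrnpk, 0.001.

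Neuron marker genes had values below 0 as well. All 8 of 8 measured were below 0, from -0.51 for Snap25 to -0.12 for Rbfox3, where 60.1% of all tested probe sets were below 0. The list's mean was 7.63 to 7.95 in Sirt1 inactive arrays, against 8.00 to 8.27 in control arrays. The array means did not overlap, and the dimmest marker had a mean of 6.71. Control replicate 3 had the highest mean, 8.27. The median difference of the 8 markers was -0.31, and -0.19 without control replicate 3, with all 8 still below 0. In bulk cultures, fewer cells of a type and less RNA per cell cannot be told apart. The part of neuronal cells in the microRNA values was not tested. Markers of microglia were also all below 0 (7 of 7), beside 60.1% of all tested probe sets. It was 5 of 7 without control replicate 3 or with array medians subtracted, beside 53.7% and 48.9% of all tested probe sets. The mean of the microglia markers was 6.53 to 6.57 in Sirt1 inactive arrays and 6.59 to 6.69 in control arrays.

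Progenitor microRNA genes went both ways, with 13 of 18 below 0 (12 without control replicate 3), beside 67.7% of the 300 genes. Mir92b, at 8.42, 8.46 and 8.40 in Sirt1 inactive arrays and 8.58, 8.58 and 8.49 in control arrays, was lower without overlap (difference -0.12). Mir9-1 and Mir9-3 had -0.067 and -0.030, and Mir99a had -0.005. Of the 3 oligodendrocyte microRNA genes, all were below 0, though 1 of 3 without control replicate 3, and Mir219a-1, known from myelination, had -0.14 without overlap. Oligodendrocyte lineage markers averaged 8.85 to 9.10 in Sirt1 inactive arrays and 8.59 to 8.86 in control arrays. Of these markers 4 of 7 were below 0, beside 60.1% of all tested probe sets. The other 3, Gpr17, Sox10 and Pdgfra, which mark progenitors and the lineage, were higher without overlap, with differences of 0.75, 0.28 and 0.79 (unadjusted p = 0.0027, 0.0323 and 0.0416, limma, none passing after adjustment). Of all tested probe sets 2.62% were higher without overlap, and 0.984% were higher at an unadjusted p under 0.05 (limma). The part of oligodendrocyte lineage cells in the microRNA values was not tested.

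The let-7 family, which restrains proliferation, had values in both directions. Of 10 measured genes 7 were below 0, beside 67.7% of the 300 genes. Without the block 0 of the 10 had an unadjusted p under 0.05 (limma), and none was free of overlap. The family's median of -0.018 changed sign with array medians subtracted (0.007, 4 of 10 below 0) and without control replicate 3 (0.024, 3 of 10 below 0). Mirlet7f-1 read 5.01, 5.38 and 5.21 in Sirt1 inactive arrays, against 4.88, 5.26 and 4.97 in control arrays, above its same-numbered control in each pair (difference 0.17; block unadjusted p = 0.0319, limma). Mirlet7e and Mirlet7d had -0.14 and 0.14.

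Of 23 microRNA genes linked to SIRT1 in other work, 18 were below 0, beside 67.7% of the 300 genes and 60.1% of all tested probe sets. Without control replicate 3 it was 14 of 23, beside 57.3% of the 300 genes. Mir34a, induced by p53, read 4.61, 4.64 and 4.73 in Sirt1 inactive arrays, against 4.74, 4.73 and 4.82 in control arrays, a difference of -0.10 without overlap. Genes of its seed, Mir34b and Mir449a, had -0.15 and -0.16, and Mir449c 0.028. Mir143, a gene of smooth muscle and vessels, had -0.21 (unadjusted p = 0.0470, limma), with overlap. In this list 2 genes had an unadjusted p under 0.05 and were lower, and 1, Mir181b-2, was higher. Shares at that p were 4.67% lower and 0.667% higher among the 300 genes, and 2.63% and 0.984% among all tested probe sets. Without overlap, 5 were lower and 2 higher, beside 10.7% and 3% of the 300 genes and 6.71% and 2.62% of all tested probe sets.

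The imprinted Dlk1-Dio3 region on chromosome 12 held 40 measured genes, of which 35 were below 0, beside 67.7% of the 300 genes. Their median difference was -0.038, beside -0.037 over the 300 genes. Without control replicate 3, 24 of the 40 were below 0 (median -0.010), and 30 with array medians subtracted. One stretch of 29 neighbouring genes, from Mir379 to Mir369, had 24 below 0, and the 7 from Mir337 to Mir136 were all below 0. Mir412 (-0.16) and Mir380 (-0.14) were lower without overlap, Mir329 had -0.18 with overlap, while Mir494 and Mir496a were higher without overlap. Control replicate 3 deviated by 0.079 on average over the 29 genes and by 0.12 over the 7, the highest of the 6 arrays in both.

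**Figure D5:**
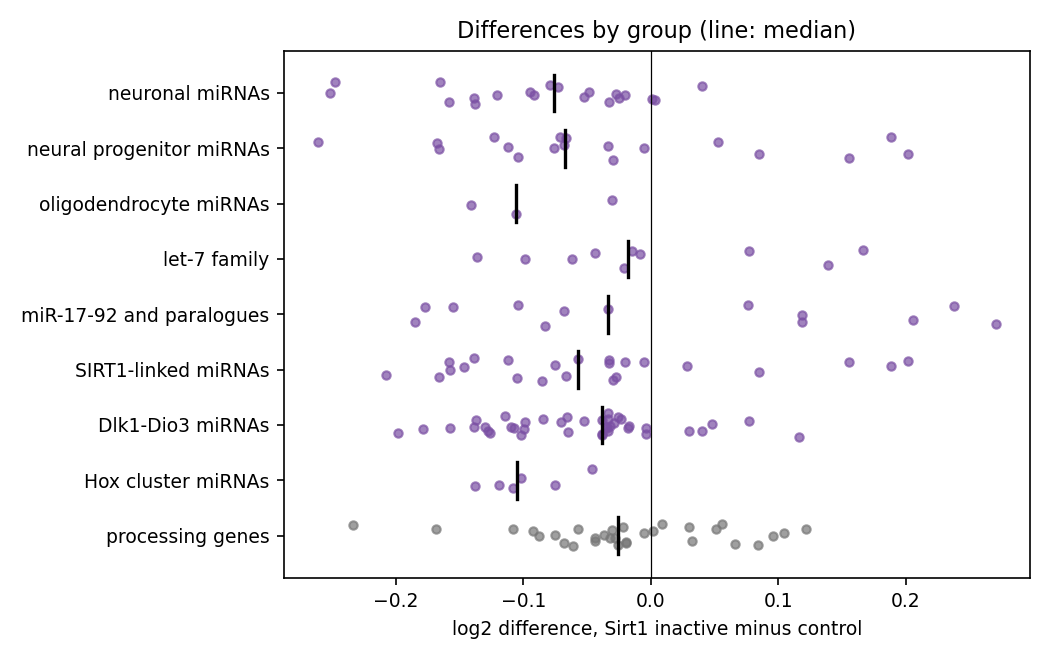
Log2 difference, Sirt1 inactive minus control, of each gene (points, with vertical scatter for legibility) and the median (bar) of 8 groups of microRNA genes and of the microRNA processing genes. The median is -0.076 for neuronal microRNAs and -0.018 for let-7, which was 0.007 with array medians subtracted, and no gene passed after adjustment.

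MicroRNA genes known from other tissues were read as well. Whether they are silent in these cultures was not tested, so their levels do not define a background. All 7 muscle and all 5 pluripotency genes lay in the dimmest quartile, with means from 3.49 to 5.04 for muscle and from 3.63 to 4.27 for pluripotency, and 3 of 7 and 4 of 5 were below 0. Of 14 epithelial and endodermal genes 10 were below 0, and Mir375 (8.08, 8.08 and 8.05 in Sirt1 inactive arrays, 8.14, 8.16 and 8.35 in control arrays) was lower without overlap at a bright level. The Hox cluster genes were below 0 in 6 of 6, and Mir10b was lower without overlap between 3.85 and 3.95 in Sirt1 inactive arrays and between 3.97 and 4.03 in control arrays. Beside these counts, 67.7% of the 300 genes and 60.1% of all tested probe sets were below 0. Lower without overlap were 10.7% and 6.71%.

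Members of a genomic cluster were compared by sign. Within 10 kb on the same strand, 130 of the 258 placed genes formed 40 clusters, 29 of them pairs. Of the 40 clusters, 14 were below 0 in every gene and 7 above 0 in every gene. Counted by gene, 67.7% of the 300 were below 0, which is not a share of whole clusters. In all, 67 seeds were shared by 135 genes. The 6 genes of the miR-25/92 seed were all below 0, 2 of the 6 with the miR-181 seed were below 0, and so were 4 of the 6 with the miR-15/16 seed.

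Host genes were read by probe sets of their own. Of 72 measured host genes that hold 90 of the microRNA genes, 47 were below 0, and 1, Dleu2, had an unadjusted p under 0.05. Over all tested probe sets, 60.1% were below 0 and 3.61% had such a p. In the brightest quartile were 27 hosts with 33 microRNA genes, of which 20 lay in the dimmest quartile. Mir335, for example, averaged 5.09 beside 12.7 for its imprinted host Mest, and Mir33 4.21 beside 11.1 for Srebf2, levels of different probe sets that are not amounts on one scale.

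The genes that make and use microRNAs had small differences in both directions. Of 31 measured, 20 were below 0, 1 had an unadjusted p under 0.05 and the median difference was -0.026. Over all tested probe sets, 60.1% were below 0, 3.61% had such a p and the median was -0.022. Without overlap, 2 of the 31 were lower and 2 higher, beside 6.71% and 2.62% of all tested probe sets. Tnrc6c, a partner of Argonaute in silencing, read 9.24, 9.19 and 9.31 in Sirt1 inactive arrays, against 9.33, 9.41 and 9.50 in control arrays (difference -0.17, unadjusted p = 0.042, limma). Ago2, the slicing Argonaute, had -0.11 without overlap, and the nuclease gene Parn and Gemin4 had 0.12 and 0.10, also without overlap. Drosha, Dgcr8, Xpo5 and Dicer1 had -0.044, -0.057, -0.019 and -0.093, with overlap in each. Ago4 differed by -0.23 (unadjusted p = 0.124 without the block and 0.015 with it, limma).

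Among 17 known targets of neural microRNAs, 8 were below 0, and 1, Sox9, had an unadjusted p under 0.05 (limma). Over all tested probe sets, 60.1% were below 0 and 3.61% had such a p. Sox9, a glial and stem cell factor repressed by miR-124, read 11.40, 11.30 and 11.44 in Sirt1 inactive arrays, against 11.58, 11.50 and 11.79 in control arrays (difference -0.25, unadjusted p = 0.028, limma). Nr2e1, repressed by miR-9, had 0.18, and Hes1 0.15, both with overlap. Ptbp1, repressed by miR-124, differed by 0.063. None of the 17 passed over all probe sets.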

How the data were processed

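The deposited table holds a log2 value for each probe set on each array, which the authors computed by RMA, per the submitters' processing notes. RMA subtracts background, equalises the arrays' intensity distributions and compresses differences of dim probe sets. Its version and the array's genome build are not stated in the sources used, so probe sets have no coordinates. Array medians ran from 7.36 to 7.39, and the table of 34760 probe sets held 0 columns of other samples. GEO's platform annotation paired 21640 with 1 gene, 1321 with several and 11799 with none in the table used; 21553 of the single-gene probe sets were found in RefSeq (GRCm38.p6) by Entrez identifier, with 0 symbols changed. Mature sequences were found for 270 microRNA genes and hairpins for 258.

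Differences are Sirt1 inactive minus control, fitted with limma 3.58.1 in R 4.3.3 over the 22961 probe sets with a gene, with no further normalization, two-sided and Benjamini-Hochberg adjusted at 0.05. Precision is limited by how few arrays there are. The p-values measure the spread between 3 arrays per genotype. The main fit was unpaired, since the labels do not say what a replicate number shares between genotypes. Same-numbered arrays deviated together (correlations of 0.47, 0.36 and 0.27), so a fit with the number as a block is given as the alternative. On simulated data for this comparison (22961 probe sets, 200 changed, 20 simulations), 52.3%, 89.4% and 98% of log2 changes of 0.5, 1 and 2 were recovered, with 7.7 false calls on average.

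The members, gene lists and rule for named genes were chosen with earlier results of these data known. Named are Sirt1, the 10 genes per direction with the smallest p among those without overlap (9 were higher), the 10 brightest, the dimmest, the neural, let-7, proliferation and SIRT1-linked lists, their cluster and seed neighbours and up to 4 or 8 genes of other lists; Mir568 and Mir670hg, the host genes with Mir335 and Mir33, and the marker genes of cell types were chosen after their values were seen. The closing section gives the alternatives.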

Additional observations from a re-analysis of the deposited data

How the results depend on the processing

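Most settings could not change the direction of a gene without overlap. Weighting or leaving out arrays keeps its sign, and the block, the prior and the choice of probe sets leave the difference itself unchanged. Subtracting array medians moves every difference upward by the same amount, which is smaller than the differences of these genes, so it could not change their direction. Only a renewed quantile normalization, which equalises the arrays' distributions again, could have changed it. Sirt1 and the 19 plotted genes without overlap kept their direction in all 264 values over 14 settings. Other named genes did not all: Mir9-1 (-0.067) was 0.057 without Sirt1 inactive replicate 1, Mir17 (-0.083) was 0.024 without control replicate 3, Mir19a (0.21) was -0.014 without Sirt1 inactive replicate 2, and Mir17hg (0.064) was -0.088 with array weights. The number of microRNA genes with an adjusted p under 0.05 stayed at 0 in every setting run. The count at an unadjusted p under 0.05, 16 as reported, was 24 with the replicate block, 28 with array weights and 3 with dim probe sets left out, where fewer genes are tested; leaving out 1 array gave 6 (without Sirt1 inactive replicate 3) to 25 (without control replicate 1), with 8 without Sirt1 inactive replicate 2 or control replicate 3. Their median difference of -0.037 was -0.076 without dim probe sets and -0.094 in the third brightness quartile. Over all tested probe sets, the count of 830 was 1741 with the replicate block, 312 without dim probe sets, 1376 with all probe sets tested and 1972 with number 3 left out in both groups and the block, where 19 had an adjusted p under 0.05; leaving out 1 array gave 456 (without Sirt1 inactive replicate 2) to 1453 (without control replicate 1). Their median of -0.022 was 0.0022 with array medians subtracted. Among microRNA processing genes, 1 gene at an unadjusted p under 0.05 became 2 with the replicate block, 2 with array medians subtracted, 3 with array weights, 0 with an intensity trend and robust prior, 0 with all probe sets tested and 0 to 2 when 1 array was left out. Their median of -0.026 changed sign without Sirt1 inactive replicate 1 (0.0072). Counts of gene lists without control replicate 3 or with array medians subtracted were chosen after seeing the data. Causes were not tested. The replicate block changed no call at an adjusted p under 0.05. Dim signal limits most of the microRNA genes, 189 of which lie in the dimmest quartile.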
